A study of Mus musculus with 8 samples.

Results

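The 10 guidance genes described here are the ligands Slit1, Slit2 and Slit3, their receptors Robo1, Robo2 and Robo3, the ligand netrin-1 (Ntn1) and its receptors Dcc, Unc5b and Unc5c. They were taken by symbol from the 32285 genes counted in each library. The series profiled single nuclei of the petrous temporal bone (PTB), the bone that houses the inner ear, and of the paraflocculus/flocculus (PF/F), the cerebellar lobules lodged beside it, from mice at postnatal day 5.5. For each tissue there were 2 libraries from wild-type (WT) mice and 2 from littermates heterozygous for Tbx1 (Tbx1+/-), a transcription factor gene of the 22q11.2 deletion interval, and each library pooled 5 mice. Every cell of a Tbx1+/- animal carried the mutant allele, no other allele or agent was used, and differences between the pooled animals cannot be seen. Types are those of the study's own annotation, of which 15 in PTB and 14 in PF/F are described. A level below is the share of a gene among all unique transcripts (UMIs) of a type in a library, as counts per 1000000 (CPM) of its summed nuclei, and means are given with the SD over the 4 libraries of a tissue (n = 4, both genotypes). Where 4 values are listed, they stand in the order WT 1, WT 2, Tbx1+/- 1, Tbx1+/- 2.

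Slit proteins are large secreted ligands best known for repelling growing axons and migrating neurons, and Robo receptors read them at the cell surface. Netrin-1 is a laminin-related secreted ligand that attracts through Dcc and repels through Unc5 receptors, alone or together with Dcc. In the developing hindbrain these systems steer neurons that leave the rhombic lip, and both also act outside the nervous system, where Slit and netrin signals have been described in bone-forming and bone-resorbing cells. Robo3 is an unusual Robo that modulates Slit and netrin responses in commissural neurons.

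The annotated nuclei numbered 5981 to 9977 per library in PTB and 9153 to 13835 in PF/F, with 33515253 to 43752949 and 37700625 to 52902902 UMIs. Tbx1 itself stood at 38.9 and 39.4 CPM in the WT PTB libraries and at 26.3 and 35.7 CPM in the Tbx1+/- ones, and at 4 to 13 UMIs per PF/F library. Barcodes shared between libraries numbered 35 to 94 in each of 28 library pairs (0.313% to 0.652%). Not every type name was matched by its markers. The chondrocyte progenitor list was highest in matured chondrocytes and ranked CP1 to CP5 between 4 and 10 of 15 types, and CP6 only 11, with Sox9 at 26.3 CPM in CP6 against 144 CPM in matured chondrocytes. CP6 held the highest sum of the neuron list (1686 CPM), of which Syt1 alone was 1625 CPM, while Snap25 was at 30.4 CPM and Rbfox3 at 4.64 CPM. CP6 is therefore called by its code only. Among connective tissue types CT1 and CT2 ranked 1 and 2 for their list, and CT3 and CT4 ranked 8 and 12. In PF/F the type named GABA interneuron ranked 2 for its own list, at 518 CPM against 1884 CPM in differentiated GABA interneurons. Of the 5 markers only Gad2 was highest there (297 CPM), while Gad1 was at 115 against 807 CPM, Pax2 at 10.6 against 571 CPM and the glycinergic gene Slc6a5 at 1.52 against 160.0 CPM. GABA interneuron progenitors ranked 2 for their list (365 CPM against 587 CPM in differentiated GABA interneurons) and the early rhombic lip type ranked 2 for its own (684 CPM against 852 CPM in granule neuron progenitors, GNP). These names are used below as the annotation gives them.

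Counts included intronic reads, and the genes differ greatly in length, so levels are compared between types for 1 gene and never between genes. On GRCm38, the build behind the counts, Slit1 spans chr19:41600257-41743665 on the minus strand, Slit2 chr5:47983138-48307733 (plus), Slit3 chr11:35121224-35708507 (plus) and Ntn1 chr11:68209364-68400823 (minus). Robo1 lies at chr16:72308306-73046095 (plus) and Robo2 next to it at chr16:73891839-74411825 (minus), whereas Robo3 occupies 17.6 kb at chr9:37415669-37433246 (minus). Dcc, the longest of the 10, covers 1097 kb. Unc5b spans chr10:60762593-60831581 (minus) and Unc5c chr3:141465216-141834924 (plus). Slit2, Slit3 and Ntn1 each overlap another counted gene on the same strand, so some reads in those stretches may not have been assigned to the member. Slit2 and Unc5c overlap genes on the opposite strand.

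The 2 start regions of the neighbouring receptor genes Robo1 and Robo2 are shown because both genes had their highest PTB level in the same type, CP6. Each is the 250 bases before a RefSeq start on GRCm38.p6, read on the strand of the gene, and neither window overlaps an annotated exon. The Robo1 window, chr16:72662899-72663148 (plus), lies inside the gene, before the start of a shorter transcript. The Robo2 window, chr16:74411826-74412075 (minus), lies directly upstream of the annotated gene and is 1 of 3 RefSeq start windows of Robo2. Capitals mark an E-box, CAGCTG, searched on both strands.
Robo1: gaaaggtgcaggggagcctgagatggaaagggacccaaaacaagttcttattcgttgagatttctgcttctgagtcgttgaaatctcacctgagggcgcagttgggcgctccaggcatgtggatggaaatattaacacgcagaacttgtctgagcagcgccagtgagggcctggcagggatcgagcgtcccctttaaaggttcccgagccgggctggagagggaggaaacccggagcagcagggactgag
Robo2: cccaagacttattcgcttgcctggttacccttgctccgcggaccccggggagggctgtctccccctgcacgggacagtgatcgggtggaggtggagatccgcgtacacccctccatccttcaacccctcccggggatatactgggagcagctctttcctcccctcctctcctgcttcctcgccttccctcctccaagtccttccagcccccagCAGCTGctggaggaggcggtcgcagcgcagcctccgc
RefSeq entries were at hand for 7 of the 10 genes (not Slit1, Ntn1 or Dcc). GC content was 56.0% in the Robo1 window and 65.6% in the Robo2 window, against a median of 52.4% over all 32851 promoter windows. The Robo2 window held 1 E-box, a word present in 13.0% of all windows, and the Robo1 window held none. The other 2 Robo2 windows, which start further upstream at chr16:75447294-75447543 and chr16:75092771-75093020, held no E-box and had a GC content of 53.2% and 44.8%. Neither printed window held the RUNX core TGTGGT (14.0% of all windows) or the SOX core ACAAAG (16.5%). The window of Unc5c, also highest in CP6 in PTB, is not printed and held 1 RUNX core. These are matches of letters only.

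**Figure D1:**
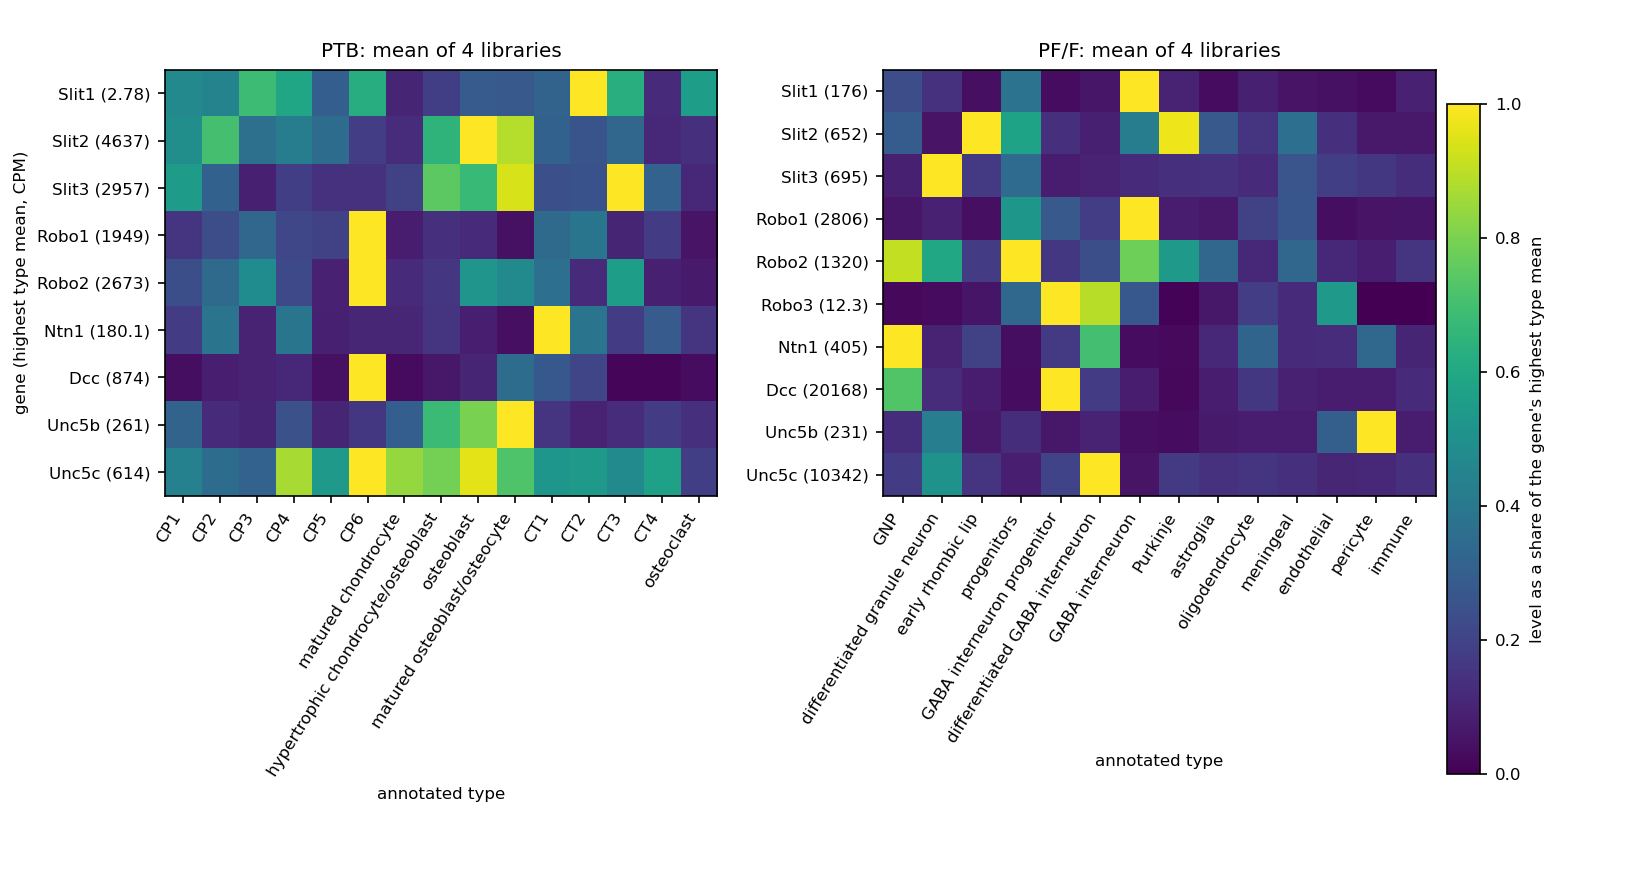
Mean level of each gene in each type described (columns) as a share of its level in its highest type (colour scale, 0 to 1), PTB left and PF/F right; the number beside each gene is the mean CPM in its highest type, and Robo3 is left out of PTB, where it had 12 UMIs in annotated nuclei. CP6 is the highest PTB type of Robo1, Robo2, Dcc and Unc5c, and in PF/F the 10 genes peaked in 8 types.

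The sets of ligands and receptors found in the 2 tissues differed. Over annotated nuclei, Slit2 averaged 2615 CPM in PTB and 144 CPM in PF/F, 18.2-fold apart, and the libraries did not overlap (2188 to 2765 and 121 to 172 CPM). Slit3 was 4.07-fold and Unc5b 2.10-fold higher in PTB. Dcc went the other way, at 4868 CPM in PF/F and 121 CPM in PTB (40.1-fold, 4242 to 5428 against 113 to 131 CPM), and so did Slit1 (21.2-fold), Unc5c (10.1-fold) and Ntn1 (2.85-fold). Robo1 averaged 416 CPM in PTB and 334 CPM in PF/F, and Robo2 912 and 663 CPM. Robo3 had 12 UMIs in annotated PTB nuclei over 4 libraries and 337 in PF/F. These folds depend on the nuclei counted. The 32101 PTB barcodes without an annotated type averaged 1060 CPM of Slit2, 9.88 CPM of Slit1 (1416 UMIs) and 0.532 CPM of Robo3 (77 UMIs), and the 9721 of PF/F 231, 28.2 and 1.76 CPM. Within a tissue, most types that followed each other in the order of levels overlapped in range, 10 to 14 of 14 neighbouring pairs per gene in PTB and 9 to 13 of 13 in PF/F, and the types named below as not overlapping are the exceptions. No test was made between tissues, which differ in cell makeup and in how nuclei were prepared (only bone was pulverized).

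In PTB, Slit2 was highest in osteoblasts and matured osteoblasts/osteocytes. Osteoblasts held 3820, 5081, 4755 and 4892 CPM (4637 ± 561) and matured osteoblasts/osteocytes 3847, 4926, 3976 and 3770 CPM (4129 ± 538), and these ranges overlapped. CP2 followed at 2927, 3454, 3321 and 3391 CPM (3273 ± 237), above hypertrophic chondrocytes/osteoblasts (2600, 3055, 3158 and 3232 CPM, 3011 ± 283) in each library though the ranges overlapped, and CT4 was lowest at 434, 454, 586 and 562 CPM (509 ± 75.9). Slit2 was nevertheless counted widely: 95.7% of osteoblast nuclei and 63.8% of osteoclast nuclei had at least 1 Slit2 UMI, or 87.2% and 33.8% after each nucleus was thinned to 1500 UMIs (median depths 4715 and 5788 UMIs). PTB barcodes without an annotated type averaged 1060 CPM of Slit2, above the means of osteoclasts (628 CPM) and CT4 (509 CPM). Osteoclasts derive from blood precursors, and how much of their Slit2 was free RNA from other nuclei was not tested.

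Slit3 shared the bone-forming types with Slit2 but was as high in CT3, a type not led by the connective tissue markers and called by its code. CT3 held 2691, 3071, 2931 and 3136 CPM (2957 ± 197), matured osteoblasts/osteocytes 2442, 3083, 2758 and 2825 CPM (2777 ± 264) and hypertrophic chondrocytes/osteoblasts 1994, 2273, 2264 and 2316 CPM (2212 ± 147). The first 2 ranges overlapped and the third lay below both. CP3 was lowest at 212, 278, 340.3 and 207 CPM (259 ± 62.9). Slit1 had 173 UMIs over the annotated PTB nuclei and stayed at or below a mean of 2.78 CPM in every type, the highest being CT2 (8.30, 2.12, 0.704 and 0 CPM).

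The Slit receptors did not peak where Slit2 and Slit3 did. CP6 held 1735, 2056, 1919 and 2088 CPM of Robo1 (1949 ± 161), 2.58 times the next type and with every library above every library of any other type. CT2 followed at 654, 988, 719 and 659 CPM (755 ± 158) and CT1 at 639.5, 717, 687 and 661 CPM (676 ± 33.4). Robo1 was lowest in matured osteoblasts/osteocytes, a type rich in Slit2 and Slit3, at 85.7, 75.5, 118 and 82.9 CPM (90.5 ± 18.9). Robo2 was likewise highest in CP6, at 2529, 3037, 2466 and 2660 CPM (2673 ± 256), 1.78 times the next type and again without overlap. Unlike Robo1, Robo2 was also high in CT3 (1418, 1849, 1434 and 1300 CPM) and in osteoblasts (1231, 1425, 1423 and 1500 CPM, 1395 ± 115), and lowest in osteoclasts (154, 211, 216 and 193 CPM). A Robo1 UMI was seen in 94.9% of CP6 nuclei and in 28.6% of osteoclast nuclei (81.2% and 10.7% after thinning), and a Robo2 UMI in 94.5% and 36.9% (83.8% and 15.6%).

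The netrin receptor Dcc was highest in CP6 too. CP6 held 781, 1052, 848 and 816 CPM (874 ± 122), 2.82 times the next type and with no overlap. Matured osteoblasts/osteocytes came next at 234, 331, 392 and 281 CPM, then CT1 at 323, 311, 137 and 193 CPM, and CT4 was lowest at 18.2, 6.84, 15.8 and 2.76 CPM. Dcc UMIs were present in 64.3% of CP6 nuclei and 4.55% of CT4 nuclei (48.2% and 1.72% after thinning). Ntn1, its ligand, was highest in CT1 at 186, 209, 159.6 and 166 CPM (180.1 ± 22.5), 2.58 times the next type and without overlap. CP4 (69.4, 60.3, 77.1 and 72.7 CPM) and CP2 (59.3, 80.7, 68.9 and 68.2 CPM) came next and overlapped, and Ntn1 was lowest in matured osteoblasts/osteocytes at 9.24, 7.55, 11.6 and 2.49 CPM.

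The Unc5 receptors, which turn netrin into a repellent signal, differed in how evenly they were spread. Unc5b followed the bone-forming series in steps that did not overlap. It stood at 167, 183, 179 and 185 CPM in hypertrophic chondrocytes/osteoblasts (178 ± 7.86), at 199, 208, 201 and 229 CPM in osteoblasts (209 ± 13.8) and at 247, 280.4, 248 and 268 CPM in matured osteoblasts/osteocytes (261 ± 16.3). No other type came near these 3, the hypertrophic type alone being 2.14 times the one after it, and CT2 was lowest at 28.2, 21.2, 35.2 and 16.6 CPM. Unc5c was the most even of the 9 genes with at least 20 UMIs in PTB, with 5.45-fold between its highest and lowest types against 80.2-fold for Dcc. Its highest types, CP6 (546, 735, 570.1 and 606 CPM, 614 ± 84.2), osteoblasts (516, 665, 597 and 576 CPM) and CP4 (565, 458, 645 and 462 CPM), overlapped in range, 13 of the 14 steps between neighbouring types overlapped, and osteoclasts were lowest at 77.3, 98.8, 118 and 157 CPM. CP6 fell to 0.966 of the osteoblast level when the 8% of nuclei with the most UMIs were left out.

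Within each PTB library, levels were also compared between consecutive types of the bone-forming series. Robo2 was 3.32, 3.25, 3.25 and 3.29 times higher in osteoblasts than in hypertrophic chondrocytes/osteoblasts, and Slit2 1.47 to 1.66 times. From osteoblasts to matured osteoblasts/osteocytes, Dcc was 3.24, 3.37, 4.29 and 2.96 times higher, while Robo1 was 0.319, 0.308, 0.459 and 0.416 times the osteoblast level. The direction was thus the same in all 4 libraries for each of these steps. The types are clusters of the same nuclei, so these ratios describe the annotation and carry no test.

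**Figure D2:**
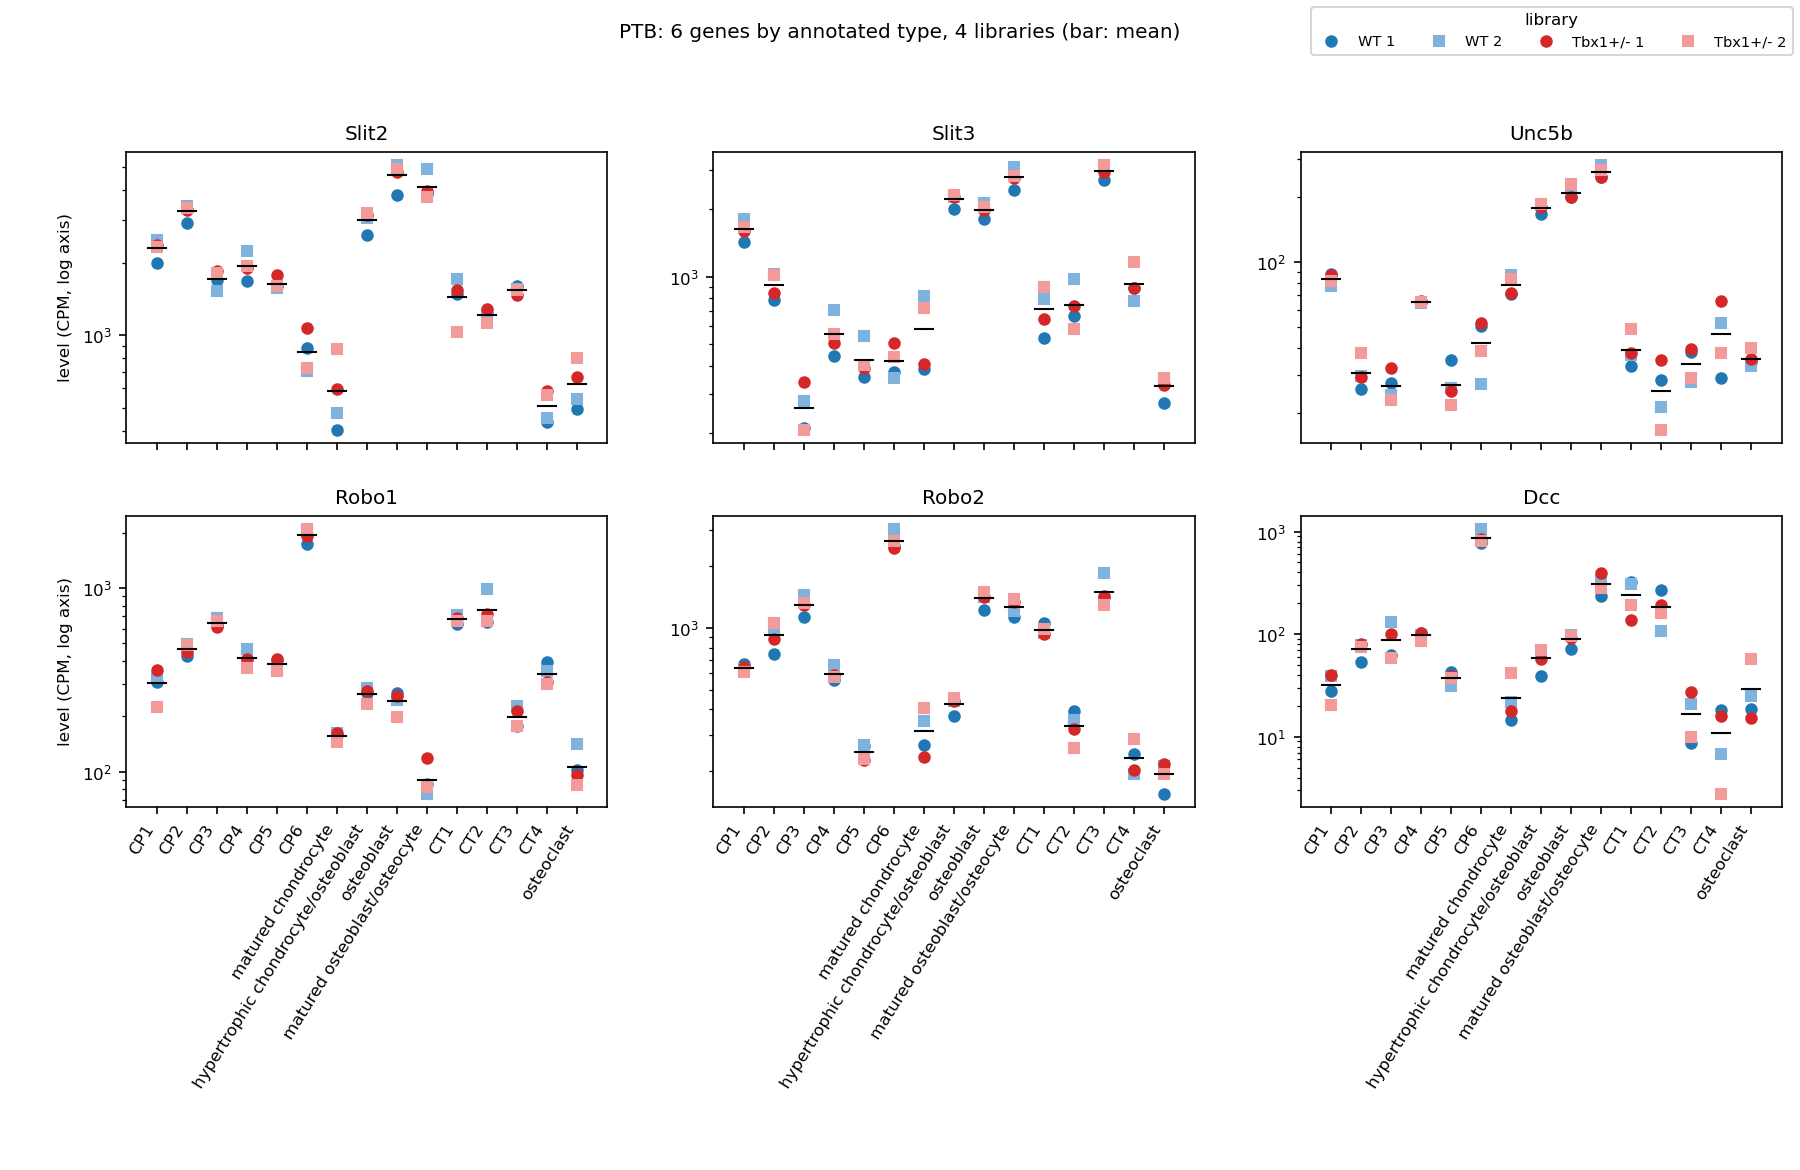
Level (CPM of summed nuclei, log axis) of 6 genes in the 15 PTB types; each point is 1 of 4 libraries and the bar is their mean. Robo1, Robo2 and Dcc stand highest in CP6 in every library, Unc5b is higher at each of the 3 bone-forming types, up to 261 CPM, and Slit2 and Slit3 are high in those types and lower in CP6.

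In PF/F, the Slit ligands were divided among different cell types. Slit1 was highest in GABA interneurons, at 138, 192, 209 and 164 CPM (176 ± 31.5), 2.62 times the next type and with no overlap. Progenitors (59.2, 95.3, 45.6 and 67.7 CPM) and GNP (44.1, 49.6, 38.5 and 33.9 CPM) came next, and pericytes held 1 UMI. The type named progenitors had 152 nuclei, as few as 20 in a library, and the highest median depth in PF/F (8241 UMIs). No marker list was set for this type. Slit2 shared its highest level between the early rhombic lip type (615, 672, 651 and 668 CPM, 652 ± 26.1) and Purkinje cells (533, 749, 574 and 683 CPM, 635 ± 98.8), whose ranges overlapped, followed by progenitors (364, 451, 304 and 399 CPM). The order of the first 2 depended on the nuclei kept, the ratio of early rhombic lip to Purkinje being 0.815 with nuclei of at least 2000 genes and 1.15 without the 8% of nuclei with the most UMIs. Differentiated granule neurons had the least Slit2, 33.6, 38.3, 34.8 and 32.4 CPM (34.7 ± 2.55).

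Slit3 had the opposite distribution to Slit2 in the granule lineage. Of the types described, it was highest in differentiated granule neurons, at 650.1, 718, 684 and 726 CPM (695 ± 34.8), 2.86 times the next type and with no overlap. Progenitors (313, 249, 175 and 236 CPM, 243 ± 56.6) and meningeal cells (211, 289, 139 and 94.2 CPM) came next and overlapped each other. GABA interneuron progenitors had the least Slit3 (95.4, 19.8, 60.0 and 50.2 CPM).

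Robo1 and Robo2, both highest in CP6 in PTB, had different highest types in PF/F, with GABA interneurons and progenitors among the 3 highest types of each. Robo1 was highest in GABA interneurons at 2258, 3153, 2257 and 3556 CPM (2806 ± 654), above progenitors (1492, 1716, 1339 and 1398 CPM, 1486 ± 166) in every library, and then in GABA interneuron progenitors (651, 955, 681 and 833 CPM). Endothelial cells had the least Robo1, 168, 106, 49.0 and 89.1 CPM (103 ± 49.6) from 63 UMIs. Robo2 was high in progenitors (1078, 1518, 1293 and 1393 CPM, 1320 ± 186), GNP (1042, 1449, 998 and 1306 CPM, 1199 ± 215) and GABA interneurons (869.6, 1249, 791 and 1203 CPM), and these ranges overlapped. Without the 8% of nuclei with the most UMIs, progenitors stood at 0.857 of the GNP level. Pericytes, with as few as 12 nuclei in a library, had 0, 104, 319.8 and 29.6 CPM of Robo2. Robo3 was at low counts throughout, the highest being 11.2, 19.8, 10.6 and 7.51 CPM in GABA interneuron progenitors (77 UMIs in all) and 12.6, 11.3, 11.7 and 8.63 CPM in differentiated GABA interneurons (164 UMIs). The progenitors had the higher mean but exceeded the differentiated type only in WT 2. No Robo3 was counted in immune cells or pericytes.

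Ntn1 was highest in GNP, the dividing cells of the external granule layer, at 386, 426, 372 and 438 CPM (405 ± 31.2). Differentiated GABA interneurons followed at 288, 287, 302 and 259 CPM (284 ± 17.7), and neither type overlapped another. Pericytes (172, 88.8, 64.0 and 222 CPM) and oligodendrocytes (129.8, 121, 147 and 127 CPM) overlapped each other, and Purkinje cells were lowest at 16.7, 8.38, 12.7 and 4.61 CPM.

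The receptors Dcc and Unc5c marked opposite ends of both neuronal lineages. Dcc reached 15313, 24420, 17887 and 23050 CPM in GABA interneuron progenitors (20168 ± 4288) and 12042, 17133, 13019 and 16718 CPM in GNP (14728 ± 2574), ranges that overlapped. Differentiated GABA interneurons followed at 3396, 3534, 3594 and 3564 CPM (3522 ± 87.3), and Purkinje cells were lowest at 603, 327, 366 and 403 CPM (425 ± 123). PF/F barcodes without an annotated type averaged 3987 CPM of Dcc, and those led by no marker list 4172 CPM. Both means lay above that of differentiated GABA interneurons. The part of free RNA in the Dcc of the differentiated types was not tested. Both libraries numbered 2 lay above both numbered 1 in the 2 progenitor types, in WT and Tbx1+/- alike, and each number is taken here to be a batch of animals. Dcc UMIs were present in 98.7% of GNP nuclei, 66.1% of differentiated granule neurons and 35.2% of endothelial nuclei (98.5%, 53.9% and 26.2% after thinning, at median depths of 2555, 2973 and 2925 UMIs). Endothelial shares ran from 22.9% to 53.3% over the libraries. How much of them was free RNA from other nuclei was not tested, and they are not read as expression.

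Unc5c was highest in differentiated GABA interneurons at 8807, 12004, 9324 and 11232 CPM (10342 ± 1522), then in differentiated granule neurons (4710, 5980, 4726 and 5733 CPM, 5287 ± 665) and GABA interneuron progenitors (2006, 2022, 2042 and 2308 CPM, 2095 ± 143). These 3 types did not overlap one another, and GABA interneurons were lowest at 672, 395, 493 and 557 CPM (529 ± 116). Unc5b was highest in pericytes, the type with fewest nuclei. They had 201, 207, 192 and 325 CPM (231 ± 63.0) from 52 UMIs in 74 nuclei, differentiated granule neurons 98.5, 104, 98.8 and 94.9 CPM (99.1 ± 3.88) and endothelial cells 76.5, 52.9, 70.0 and 82.0 CPM from 48 UMIs. Purkinje cells were lowest at a mean of 7.62 ± 4.61 CPM.

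The step from progenitor to differentiated neuron was compared within each PF/F library. From GNP to differentiated granule neurons, Dcc was at 0.191, 0.168, 0.188 and 0.164 of its level and Ntn1 at 0.103, 0.0901, 0.119 and 0.0819. Unc5c was 2.89, 2.95, 2.84 and 2.79 times higher, Slit3 14.5, 9.94, 11.1 and 11.3 times and Unc5b 3.17, 3.52, 3.03 and 3.33 times. Ligand and receptor of the attractive netrin response were both lower, and a receptor of the repellent response was higher, in the differentiated granule neurons of every library. Slit2 was 0.157 to 0.212 of its GNP level, Slit1 0.552 to 0.704 and Robo2 0.579 to 0.703, while Robo1 was 1.40 to 1.65 times higher.

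The GABA lineage shared the direction of the Dcc and Unc5c steps, while Ntn1, Robo1, Robo2 and Slit1 went the other way from the granule lineage in all 4 libraries. Between GABA interneuron progenitors and differentiated GABA interneurons, Dcc was at 0.222, 0.145, 0.201 and 0.155 of its level, and Unc5c was 4.39, 5.94, 4.57 and 4.87 times higher. Ntn1 was here 4.82, 4.21, 4.08 and 3.68 times higher in the differentiated type, and Slit1, at low counts, 3.75, 2.09, 1.46 and 1.19 times. Robo1 was 0.609 to 0.689 and Slit2 0.635 to 0.730 of the progenitor level, and Robo2 was 1.20 to 2.21 times higher.

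**Figure D3:**
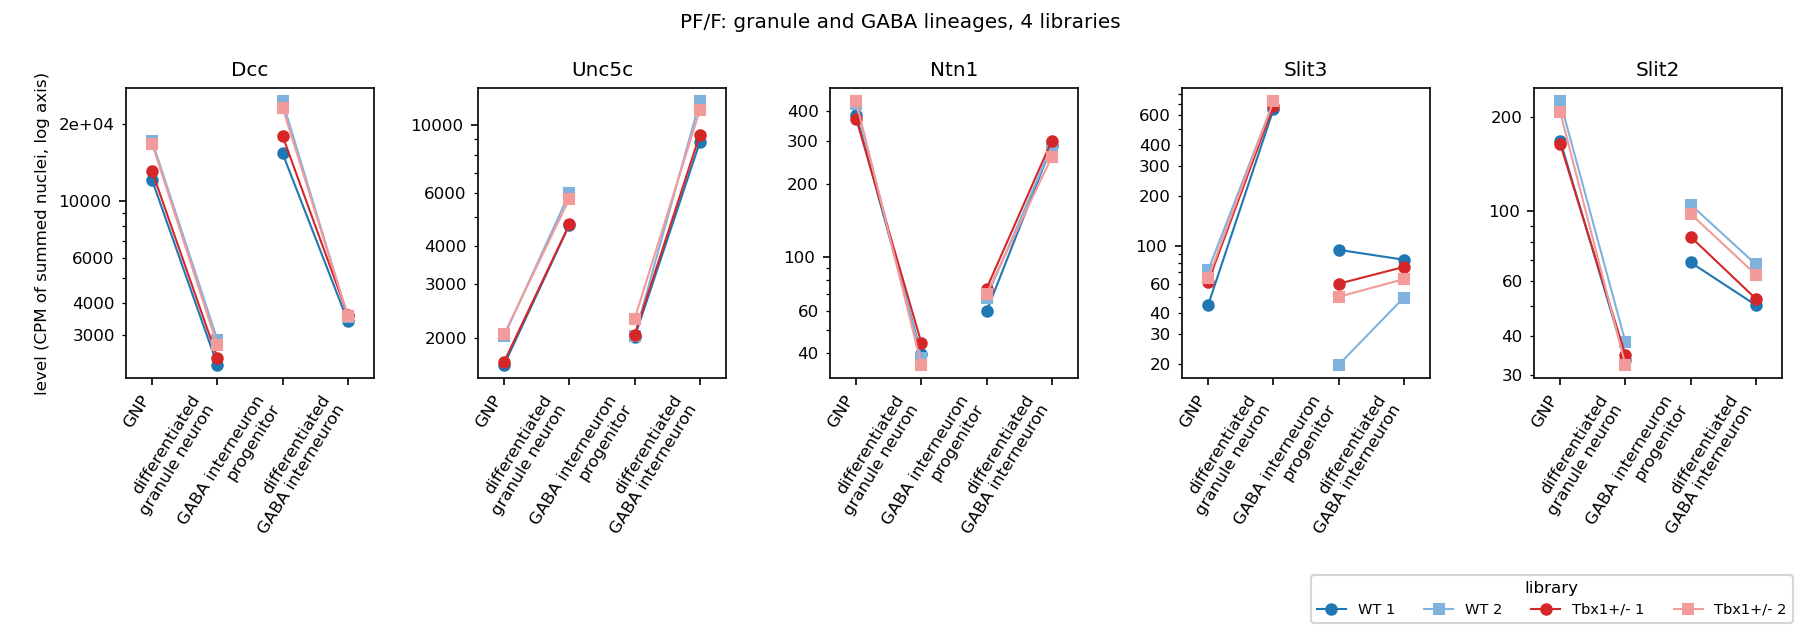
Level (CPM of summed nuclei, log axis) of 5 genes in progenitor and differentiated types of the granule and GABA lineages of PF/F; each line joins the 2 types of 1 lineage within 1 of 4 libraries. Dcc is lower and Unc5c higher in the differentiated type of both lineages, Ntn1 is lower in the granule lineage and higher in the GABA lineage, and Slit3 is higher in the differentiated type of the granule lineage.

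Set against each other in the same nuclei, Dcc and Unc5c gave a log2 ratio of UMIs of 2.89 to 3.08 in GNP and 2.93 to 3.59 in GABA interneuron progenitors. It was -1.07 to -0.95 in differentiated granule neurons and -1.76 to -1.37 in differentiated GABA interneurons. As the genes differ in length, the size of a ratio and its side of 0 have no meaning alone, and only its difference between types is read. The ratio was lower in the differentiated type in every library of both lineages. In the type named GABA interneuron, which was not part of the steps compared, the ratio was 1.18 to 2.37. In PTB it was highest in CP6 in every library (0.43 to 0.57).

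**Figure D4:**
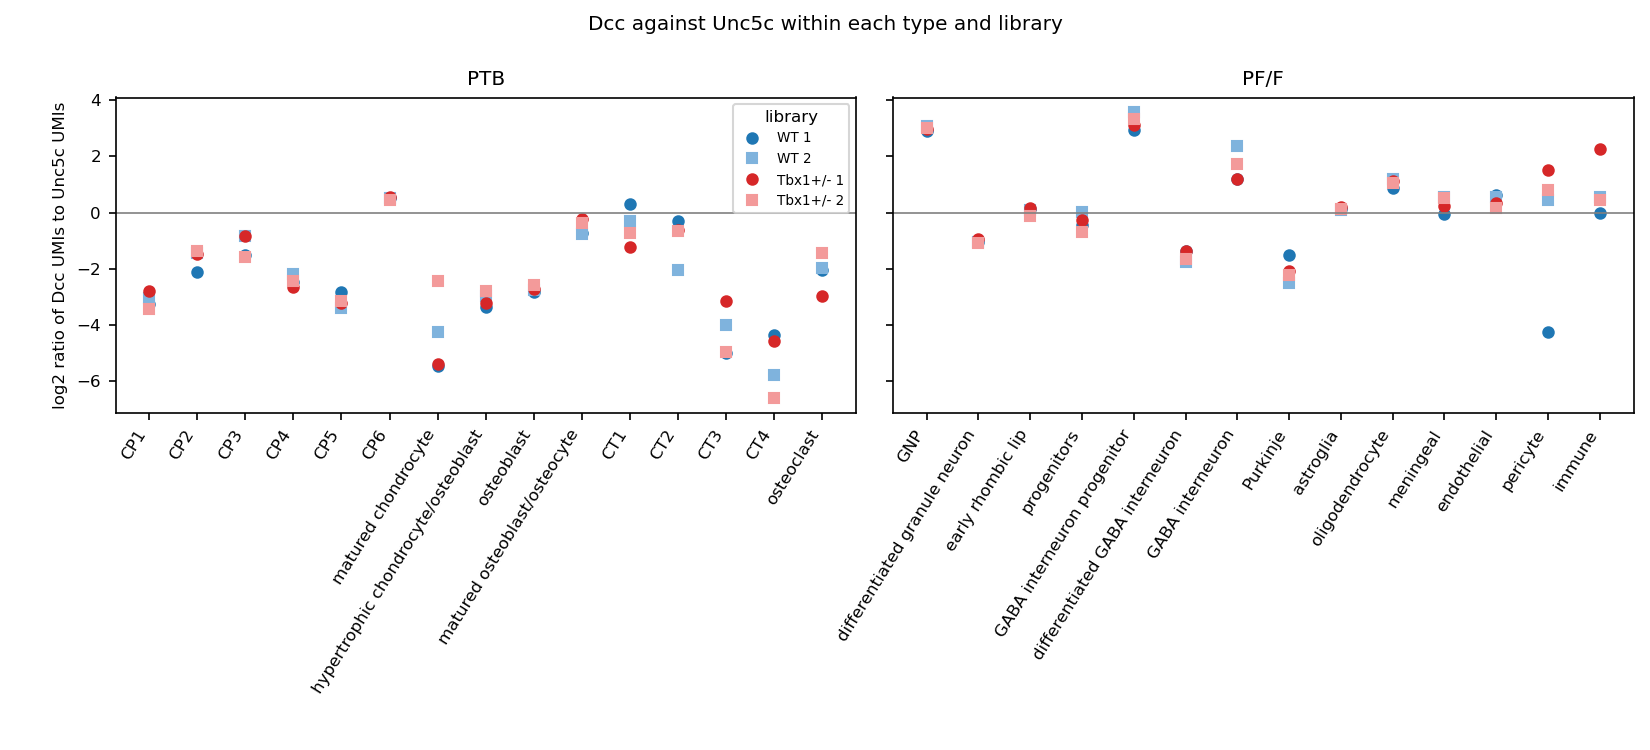
Log2 ratio of Dcc to Unc5c UMIs in the types described of PTB (left) and PF/F (right); each point is 1 of 4 libraries, and the line marks 0, which depends on the lengths of the genes. Of the types shown, GNP and GABA interneuron progenitors lie highest, at 2.89 or more, and pericytes of WT 1 (12 nuclei) lie apart at -4.25.

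The genes whose levels over types most resembled each member are given as a description, by the correlation of mean log2(CPM + 1) over the 15 PTB types (12768 genes) or 14 PF/F types (13854 genes). All points share the same libraries. In PTB the best matches of Slit2 and Slit3 were the non-coding genes that overlap them, 4930518C09Rik (0.963) and Gm12122 (0.984), followed for Slit2 by Sec22a (0.880) and for Slit3 by Tmem30a (0.931) and Fat1 (0.885). Unc5b was matched by the vitamin D receptor gene Vdr (0.964), the homeobox gene Dlx3 (0.960) and Ncf1 (0.959). Robo1 was matched by Ctsl (0.923), Purg (0.917) and Esrrg (0.912), Dcc by Arhgap20 (0.907) with its antisense gene Arhgap20os (0.899), and Ntn1 by Sntg2 (0.842) and Wnt9a (0.831). Robo2 and Unc5c had weaker best matches, Gm26901 (0.752) and Zfp608 (0.806). Within single libraries the correlation was 0.378 to 0.715 for Robo2 and Gm26901, 0.528 to 0.832 for Slit3 and Tmem30a and 0.581 to 0.824 for Unc5c and Zfp608, and 0.657 or more for the other PTB matches named.

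In PF/F, Dcc was matched by Igfbpl1 (0.930), Hes6 (0.930) and the chromatin remodeller gene Smarca5 (0.927). Slit3 was matched by Unc13c (0.861) and Crhr1 (0.844), Slit1 by the growth cone gene Gap43 (0.908) and Gm16226 (0.894), and Unc5c by Tmtc2 (0.857) and Cacna2d3 (0.841). Slit2 came closest to Fam229b (0.856), Robo1 to Lztr1 (0.876), Robo2 to Gprin3 (0.911), Ntn1 to Tbc1d15 (0.857) and Unc5b to Rbm12b1 (0.887). Within single libraries the match of Unc5b and Rbm12b1 ran from -0.676 to 0.767 and so changed sign, that of Robo1 and Lztr1 from 0.340 to 0.724, that of Ntn1 and Tbc1d15 from 0.427 to 0.656 and that of Dcc and Hes6 from 0.506 to 0.941, and the other PF/F matches named were at 0.542 or more. Among the members themselves, the closest were Slit3 and Unc5b in PTB (0.65) and Slit1 and Robo2 (0.76) and Ntn1 and Dcc (0.68) in PF/F, and the most opposed were Slit2 and Unc5b in PF/F (-0.61).

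Whether loss of a Tbx1 copy altered these genes was tested type by type between 2 WT and 2 Tbx1+/- libraries, using edgeR's quasi-likelihood test over all genes and calling an adjusted p under 0.05 with a change above 1.5-fold. No member was called in any type described by this test, which had no batch term. In PTB 118 of the 150 pairs of a member and a type had enough counts for the test, and 32 pairs, including all of Slit1 and Robo3, did not. None of the 118 was called (background 0% of 187198 tests over all genes), and 6 had an unadjusted p under 0.05, 3 higher and 3 lower in Tbx1+/- (5.08%, background 1.81%). In PF/F 113 of 140 pairs were tested and none was called (background 0.000685%, or 1 of 145983 tests), and 3 had an unadjusted p under 0.05, all lower in Tbx1+/- (2.65%, background 1.27%). Pairs that share a gene share libraries and mice and are not independent. DESeq2 called none either, again without a batch term, with 4 and 2 pairs at an unadjusted p under 0.05. With the replicate number as a block, edgeR called 1 pair in each tissue, described below (background 0.0379% in PTB and 0.0384% in PF/F, pooled over types). With 4 libraries and a batch term, little is left to measure the spread between pools. The SE and p under the block therefore rest largely on the spread of other genes. Without the block, the median log2 change was 0.00 over the PTB pairs and over the PF/F pairs, and medians over all genes of a type lay between -0.014 and 0.015.

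The pair with the smallest p in PTB was Dcc in CT1. Its level was 323 and 311 CPM in WT and 137 and 193 CPM in Tbx1+/-, so both WT libraries lay above both Tbx1+/- libraries. With 2 libraries per genotype, such separation is frequent without any genotype effect, and picking pairs by smallest p favours it. Here and below it is given as a description only. Each SE of a log2 change given here is the absolute change divided by the square root of the edgeR test's F value. It is therefore unreliable where the change is near 0. The log2 change of Dcc in CT1 was -0.99 (SE 0.21, edgeR adjusted p = 1.000). With the replicate number as a block, taken to mark the study's batches, it was -1.01 (SE 0.18, edgeR adjusted p = 4.5e-04). Dcc in CT1 was then the single member called in PTB (background 0.0379% over all types, and 14 of 13488 genes in CT1). It was also called without WT 2, in a fit with 1 WT library. CT1 had 1315 and 332 nuclei in WT and 878 and 118 in Tbx1+/-, both libraries numbered 1 having more than both numbered 2. Over all annotated PTB nuclei, not CT1 alone, the summed neuron markers were 189.9 and 177 CPM in WT and 151 and 165 CPM in Tbx1+/-. Their sum was highest in CP6, where Syt1 made up 1625 of 1686 CPM. The part of neuronal RNA in the Dcc difference was not tested.

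Osteoclasts gave the next 2 pairs in PTB. Slit2 there was 493 and 543 CPM in WT and 669.9 and 807 CPM in Tbx1+/- (log2 change 0.51, SE 0.14, edgeR adjusted p = 1.000). Unc5c was 77.3 and 98.8 CPM in WT and 118 and 157 CPM in Tbx1+/- (0.64, SE 0.19, edgeR adjusted p = 1.000). Neither pair overlapped between genotypes and neither was called, and with the block the adjusted p was 0.147 for Slit2 and 0.0916 for Unc5c. Osteoclasts were among the lowest types for both genes, and the part of free RNA was not tested. The other 3 pairs at an unadjusted p under 0.05 were Unc5c in CT2 (-0.54, SE 0.20), Slit2 in matured chondrocytes (0.78, SE 0.33) and Robo1 in osteoclasts (-0.43, SE 0.17).

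In PF/F the smallest p belonged to Slit3 in meningeal cells, the fibroblasts and related cells of the brain's covering. Slit3 was 211 and 289 CPM in WT and 139 and 94.2 CPM in Tbx1+/-, again without overlap. The log2 change was -1.09 (SE 0.28, edgeR adjusted p = 1.000), and with the replicate block -1.10 (SE 0.19, edgeR adjusted p = 1.8e-05). It was the single PF/F call under the block (background 0.0384% over all types, and 24 of 10002 genes in meningeal cells). It was also called without WT 1, in a fit with 1 WT library. The change was -0.60 in batch 1 and -1.62 in batch 2, a gap that the SE under the block does not reflect. A Slit3 UMI was seen in 19.5% of meningeal nuclei, against 54.7% of differentiated granule neurons and 9.28% of immune nuclei (11.5%, 43.3% and 5.60% after thinning), and immune cells, which derive from blood or yolk sac precursors, held 103 and 96.8 CPM in WT and 80.7 and 89.1 CPM in Tbx1+/-. The part of free RNA in the meningeal difference was not tested. Dcc in endothelial cells (2493 and 1668 CPM in WT, 811 and 1201 CPM in Tbx1+/-) gave a log2 change of -1.01 (SE 0.42, edgeR adjusted p = 1.000) on as few as 15 nuclei in a library. The part of free RNA in this Dcc was not tested. Slit1 in GNP (44.1 and 49.6 CPM against 38.5 and 33.9 CPM) gave a log2 change of -0.35 (SE 0.15, edgeR adjusted p = 1.000).

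In the types where each gene was highest, no genotype change was called. In PTB the log2 change of Slit2 in osteoblasts was 0.10 (SE 0.17), of Slit3 in CT3 0.06 (SE 0.17) and of Unc5b in matured osteoblasts/osteocytes -0.06 (SE 0.18). In CP6 it was 0.07 for Robo1 (SE 0.18), -0.13 for Robo2 (SE 0.18), -0.15 for Dcc (SE 0.19) and -0.13 for Unc5c (SE 0.19). Ntn1 in CT1, at 186 and 209 CPM in WT and 159.6 and 166 CPM in Tbx1+/-, gave -0.28 (SE 0.17) and did not overlap. In PF/F the changes ran from -0.01 for Unc5c in differentiated GABA interneurons (SE 0.50) to 0.34 for Unc5b in pericytes (SE 0.45), apart from Robo3 in GABA interneuron progenitors at -0.72 (SE 0.40). Robo3 was at low counts there, and the genotypes did not overlap though WT 1 and Tbx1+/- 1 were close (11.2 and 19.8 CPM in WT, 10.6 and 7.51 CPM in Tbx1+/-). The adjusted p of each of these was 0.999 or 1.000 by edgeR. With standard errors of this size, themselves unreliable for changes near 0, the missing calls do not show that the genotypes were alike.

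Summed over all annotated nuclei of a tissue, where fewer nuclei of a type and less RNA per nucleus cannot be told apart, none of the 9 members tested in PTB was called (background 0%) or had an unadjusted p under 0.05 (background 1.07%). The same held for the 10 members tested in PF/F (background 0% called and 0.477% unadjusted). The PTB changes were -0.31 for Ntn1 (SE 0.19), -0.19 for Dcc (SE 0.08), -0.16 for Robo1 (SE 0.09) and 0.21 for Unc5b (SE 0.10), and the furthest from 0 in PF/F was -0.37 for Robo3 (SE 0.21). The genotype change was also compared between tissues by an interaction term over all 8 libraries. None of 10 members was called (background 0%) or had an unadjusted p under 0.05 (background 0.899%), by edgeR or DESeq2, the largest interaction being -0.42 for Robo3 (SE 0.85) and 0.34 for Ntn1 (SE 0.23).

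**Figure D5:**
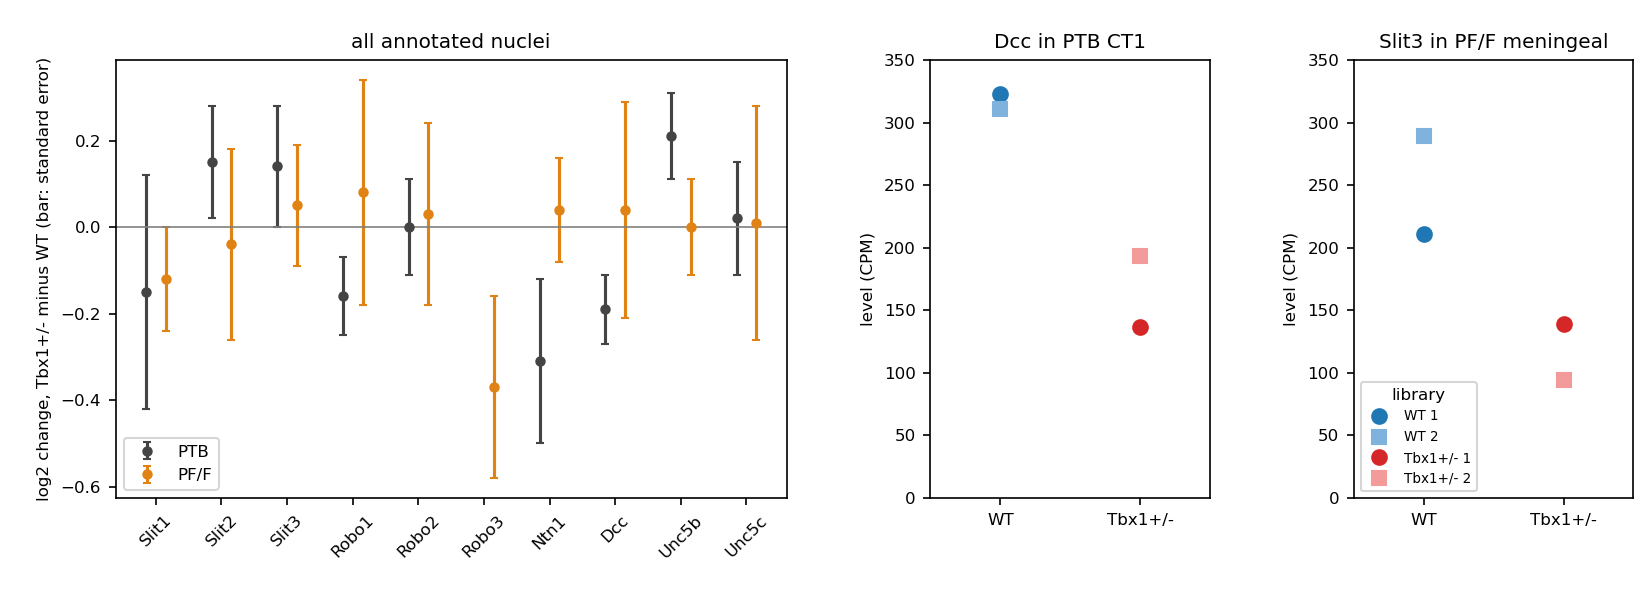
Left, log2 change (Tbx1+/- minus WT) of each gene over all annotated nuclei of PTB and PF/F, points with standard errors derived from the edgeR F value, Robo3 not tested in PTB. Centre and right, level (CPM) of Dcc in CT1 and of Slit3 in meningeal cells in each of 4 libraries. No change on the left was called. The pairs in the other panels were picked by smallest p, and in them both WT libraries lie above both Tbx1+/- libraries.

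A list of 35 further genes of these pathways (other Robo, netrin and Unc5 members, co-receptors, Flrt ligands of Unc5 receptors and intracellular effectors) was described in the same way. In PTB 34 of them gave 440 tests, of which 0 were called higher and 0 lower in Tbx1+/-, with 10 at an unadjusted p under 0.05 (2.27%, background 1.81%). In PF/F 34 gave 393 tests, again with 0 called in either direction and 10 unadjusted (2.54%, background 1.27%). Up to 4 of the genes per tissue are named, picked by CPM in the types where a member was highest, which favours long genes and ranks no gene above another. In PTB, Srgap1, a Robo effector, was highest in matured osteoblasts/osteocytes (1810 ± 47.0 CPM), the netrin effector Dock1 in osteoblasts (836 ± 66.8 CPM) and Flrt2 in CT3 (794 ± 53.8 CPM). The actin regulator gene Enah was at 971 ± 49.3 CPM in CT3 and highest in CP5 (1023 CPM), which is the highest type of no member. In PF/F, Ntng1, a membrane-bound netrin relative, was highest in progenitors (2758 ± 261 CPM), the Dcc relative Neo1 in GNP (813 ± 144 CPM) and the focal adhesion kinase gene Ptk2 in pericytes (759.6 ± 149 CPM). The netrin receptor gene Dscam was at 1612 ± 109.8 CPM in GABA interneurons and highest in oligodendrocytes (1763 CPM).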

How the data were processed

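Nuclei of 8 libraries were processed by the authors with 10x Genomics chemistry and Cell Ranger 7.0.0 against mm10, intronic reads included; the deposited matrices hold raw counts (UMIs) per gene and barcode. The authors' annotation gave the type of each nucleus, and barcodes without one were left out of the comparisons. A pair of annotated PF/F types is not reported here and was kept only in sums over all annotated nuclei. The authors removed low-quality nuclei and corrected free RNA with SoupX before they annotated; the raw counts used here are not corrected for it. No doublet caller was run; an alternative dropped the deepest 8% of nuclei per library. Groups came from the labels, and 0 columns could not be matched to a sample. UMIs were summed per library and type with at least 10 nuclei in each library and scaled to CPM. Genotypes were compared with edgeR 4.0.16 (filterByExpr, TMM, quasi-likelihood, Benjamini-Hochberg) in R 4.3.3, checked on simulated data, with DESeq2 1.42.0, other scaling, no filter, other nuclei, the replicate block and single libraries left out as alternatives. The simulated counts held no batch effect, so that check does not measure error rates or power on these libraries. No source ties a library to separate litters, so p-values measure the spread between pools of 5 mice. Without the replicate block, that spread also holds any difference between batches. The study used separate batches of animals, taken here to be the replicate numbers; deviations from the group means of same-numbered libraries correlated at 0.478 over 20250 genes in PTB and at 0.550 over 20756 genes in PF/F. Named were, per gene with enough UMIs, its 3 highest types and its lowest (only the highest for Slit1 in PTB, and the 2 highest for Robo3), the 3 pairs per tissue with the smallest p, and the most similar genes above 5 CPM; other pairs under an unadjusted p of 0.05 were named after their values were seen. The members and lists were chosen with earlier results of these data known. Sequencing depth limits genes of few UMIs such as Robo3.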

Additional observations from a re-analysis of the deposited data

Results flagged for a closer look

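PTB barcodes that carry no annotated type were left out above, and some of them held more of a member than any annotated type did in every library; that difference is what marked the 5 results here, and it was not tested. Barcodes were grouped by the marker list with the most UMIs. Among 2470 barcodes led by neuron markers, Unc5c averaged 1508 CPM (924, 2116, 1164 and 1827 CPM in WT 1, WT 2, Tbx1+/- 1 and Tbx1+/- 2), against 614 CPM in CP6, its highest annotated type. The same barcodes held Slit1 at 28.5 CPM (29.5, 30.1, 30.0 and 24.2 CPM), against 2.78 CPM in CT2. In 2243 barcodes led by immune markers Slit1 averaged 28.7 CPM (26.8, 30.3, 33.8 and 23.8 CPM). Ntn1 averaged 231 CPM in 1359 barcodes led by epithelial markers (288, 243, 205 and 189 CPM), against 180.1 CPM in CT1. Robo3 averaged 2.62 CPM, from 46 UMIs, in 3059 barcodes led by endothelial markers (3.30, 2.93, 2.33 and 1.91 CPM), against 0.814 CPM in matured chondrocytes.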

How the results depend on the processing

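Over scaling factors, the filter on low counts, DESeq2, the replicate block, nuclei of at least 2000 genes, the 8% of nuclei with the most UMIs left out and single libraries left out, 48 of 54 alternative counts of called members stayed as reported. In PTB types the count was 1 in place of 0 with no filter on low counts and with the replicate block, each time Dcc in CT1 (no-filter adjusted p = 0.00392, edgeR). Over all genes of CT1, 16 of 23033 were called with no filter and 14 of 13488 with the block. In PF/F types the count was 1 with the replicate block (Slit3 in meningeal cells, where 24 of 10002 genes were called). The other changed counts came from leaving out a library. Without WT 1 they concerned Slit3, at a log2 change of 1.46 in GABA interneuron progenitors and -1.28 in meningeal cells. Without WT 2 they concerned Dcc in CT1 and in pericytes. Leaving out WT 1 or WT 2 also raised the calls over all genes in most types, so these are not read as results about the members. The block changed no other member's call. Why these calls depend on the setting was not tested.

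Of 237 alternative values of 24 log2 changes, 25 differed in sign, in 15 changes that were never called. Robo2 in progenitors was -0.31 without the 8% of nuclei with the most UMIs, and Unc5c in differentiated GABA interneurons was 0.00 with no filter and with the replicate block. Leaving out single libraries gave -0.09 to 0.31 for Slit2 in osteoblasts, -0.04 to 0.17 for Slit3 in CT3, -0.16 to 0.04 for Unc5b in matured osteoblasts/osteocytes, and in CP6 -0.06 to 0.19 for Robo1, -0.27 to 0.01 for Robo2, -0.36 to 0.08 for Dcc and -0.34 to 0.09 for Unc5c. In PF/F it gave -0.09 to 0.46 for Slit1 and -0.29 to 0.44 for Robo1 in GABA interneurons, -0.01 to 0.13 for Slit2 in the early rhombic lip type, -0.03 to 0.16 for Slit3 in differentiated granule neurons, -0.19 to 0.36 for Robo2 in progenitors, -0.10 to 0.11 for Ntn1 in GNP, -0.26 to 0.43 for Dcc in GABA interneuron progenitors and -0.25 to 0.29 for Unc5c in differentiated GABA interneurons. The cause was not tested. Leaving out a library leaves 1 sample in a group, which is then assumed to vary like the others. Of 114 alternative levels in the highest types 110 moved by less than 1 SD, and of 108 alternative ratios to the next type 6 fell below 1, in 4 ratios.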
